A study of Mus musculus with 6 samples.

Results

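Peaks of TAF4A that lay away from the start of their listed gene were described in cultured muscle stem cells (MuSCs). A peak was included if its centre was more than 1000 bases from the start of the gene listed for it, or if no gene was listed. Of 1131 TAF4A peaks, 335 (29.6%) met this rule. In 213 of them a gene was listed with a start more than 1000 bases away, covering 188 distinct genes, and in 122 no gene was listed. Both subsets are given separately throughout, and the other 796 peaks, centred within 1000 bases of the listed start, serve for comparison.

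The peaks come from a study of TAF4A in MuSC quiescence, which used CUT&RUN, an assay in which an antibody directs a nuclease to its target in permeabilised cells and the released DNA is sequenced. All libraries were made from wild-type C57BL/6 MuSCs that were activated and proliferating in culture. There were 3 TAF4A libraries (replicates 1, 2 and 3) and 3 control libraries prepared with IgG. Only counts of the TAF4A libraries were analysed, and no value over IgG can be given here. The study describes the TAF4A libraries as biological replicates, without naming the culture or animal behind each, and p-values between libraries measure only the spread between these 3.

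TAF4A is a subunit of TFIID, the general factor that recognises core promoters and takes part in loading RNA polymerase II at transcription starts. Regulatory DNA away from starts includes enhancers, which are bound by sequence-specific factors and can contact promoters over long distances, and genes often have alternative starts inside their bodies. In MuSCs, myogenic bHLH factors such as MyoD bind E-boxes, and the AP-1 factors of the Jun and Fos families are induced when the cells are activated.

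Counts over peaks were low. Replicate 1 held 47723 counts over all peaks, replicate 2 held 24826 and replicate 3 held 32128, and the 335 peaks took 10778, 6092 and 7602 of these. The median count of the peaks with a listed gene was 23, 12 and 16 in replicates 1, 2 and 3, and that of the peaks with no listed gene was 19, 10 and 14. The peak set joins peaks called in single libraries. By the paper's quality counts, replicate 2 had by far the fewest called peaks and replicate 3 the most. At least 10 counts in every library were found in 118 of 213 peaks with a listed gene (55.4%) and 49 of 122 with none (40.2%). Near a start this held for 568 of 796 peaks (71.4%). Among marker genes, 3 of 8 for MuSCs (Des, Itga7 and Myod1) were listed for a peak, and only Itga7 for a peak over 1000 bases away. None of 4 endothelial, 3 fibro-adipogenic, 3 blood and 5 myofibre marker genes was listed for any peak of the series, which is a statement on peaks and not on expression.

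The sequences below show what groups of these peaks hold. They were read from GRCm38, the build that mm10 names, and positions count from 1. The first set shows 4 peaks with an E-box (CAGCTG), 3 of which also hold an AP-1 site (TGANTCA). These motifs were found more often in the described peaks than in peaks near starts. Motif letters on either strand are in capitals, and for the peak upstream of Taf4 the central 300 bases are given.
Iqck intron, chr7:118929973-118930254: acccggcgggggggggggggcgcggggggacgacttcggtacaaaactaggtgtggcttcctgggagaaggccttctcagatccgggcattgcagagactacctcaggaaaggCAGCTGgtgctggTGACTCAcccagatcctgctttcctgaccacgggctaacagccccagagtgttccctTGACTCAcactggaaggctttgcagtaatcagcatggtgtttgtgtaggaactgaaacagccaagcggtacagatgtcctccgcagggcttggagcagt
Ehbp1l1 intron, chr19:5724574-5724819: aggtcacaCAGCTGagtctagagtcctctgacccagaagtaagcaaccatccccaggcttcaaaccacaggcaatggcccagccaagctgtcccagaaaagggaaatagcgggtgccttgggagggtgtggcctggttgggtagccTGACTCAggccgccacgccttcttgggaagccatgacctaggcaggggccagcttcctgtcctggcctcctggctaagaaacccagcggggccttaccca
Taf4 upstream, chr2:179979828-179980127: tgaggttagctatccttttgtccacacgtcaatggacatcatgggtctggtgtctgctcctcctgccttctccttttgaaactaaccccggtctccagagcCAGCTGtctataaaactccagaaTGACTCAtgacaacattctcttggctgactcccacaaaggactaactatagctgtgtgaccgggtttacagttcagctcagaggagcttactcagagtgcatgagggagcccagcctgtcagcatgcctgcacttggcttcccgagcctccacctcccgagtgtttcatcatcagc
Itga7 upstream, chr10:128931434-128931681: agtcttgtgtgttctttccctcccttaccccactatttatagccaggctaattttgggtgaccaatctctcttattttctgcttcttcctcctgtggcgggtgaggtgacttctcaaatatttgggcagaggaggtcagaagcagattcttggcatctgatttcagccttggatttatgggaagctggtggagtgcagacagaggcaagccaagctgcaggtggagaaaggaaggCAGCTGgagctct

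The next pair shows peaks with the CCAAT motif of NF-Y (CCAATCA) away from the listed start, with NF-Y and SP1 (GGGCGGG) letters in capitals. The first lies far from any annotated transcript start, and the second lies in the body of Chd2, a chromatin remodeller, within 100 bases of the start of a noncoding transcript.
Peak with no listed gene on chromosome 6, chr6:51171005-51171203: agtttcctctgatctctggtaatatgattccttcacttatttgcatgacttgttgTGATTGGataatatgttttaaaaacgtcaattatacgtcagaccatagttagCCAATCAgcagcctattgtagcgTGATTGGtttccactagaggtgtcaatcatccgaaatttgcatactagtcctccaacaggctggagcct
Chd2 body, chr7:73537830-73538057: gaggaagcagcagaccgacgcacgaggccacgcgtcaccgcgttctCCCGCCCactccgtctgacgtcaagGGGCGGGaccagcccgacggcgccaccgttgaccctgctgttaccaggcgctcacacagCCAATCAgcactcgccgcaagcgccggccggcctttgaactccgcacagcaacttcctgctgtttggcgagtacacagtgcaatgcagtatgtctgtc

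The following peaks with no listed gene lie wholly in sequence masked as repeat and had nearly all their counts in replicate 3. They are copies of the same repeat and are given in the same orientation. Capitals mark the longest block that the 5 printed copies share, of 25 bases.
Copy on chromosome 7, chr7:37885555-37885690: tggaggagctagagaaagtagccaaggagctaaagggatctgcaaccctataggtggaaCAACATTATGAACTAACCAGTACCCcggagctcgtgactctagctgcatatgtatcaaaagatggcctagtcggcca
Copy on chromosome 5, chr5:49454494-49454606: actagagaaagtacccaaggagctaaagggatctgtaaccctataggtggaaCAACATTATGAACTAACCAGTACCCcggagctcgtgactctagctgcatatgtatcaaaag
Copy on chromosome 2, chr2:124887054-124887158: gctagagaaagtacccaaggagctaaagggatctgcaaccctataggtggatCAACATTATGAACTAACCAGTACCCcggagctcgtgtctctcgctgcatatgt
Copy on chromosome 15, chr15:37462921-37463020: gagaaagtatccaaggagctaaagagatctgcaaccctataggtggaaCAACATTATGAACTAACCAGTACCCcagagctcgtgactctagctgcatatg
Copy on chromosome 6, chr6:60679785-60679884: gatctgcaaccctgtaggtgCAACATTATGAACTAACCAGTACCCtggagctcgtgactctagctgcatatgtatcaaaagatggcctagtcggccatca

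The last sequence is the narrower of a pair of peaks in Gt(ROSA)26Sor with most counts in replicates 2 and 3. An E-box is in capitals.
Gt(ROSA)26Sor intron, chr6:113073675-113073789: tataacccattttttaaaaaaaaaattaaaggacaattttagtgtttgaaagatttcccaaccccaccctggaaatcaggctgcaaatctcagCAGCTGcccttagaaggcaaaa

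To determine where the peaks with a listed gene lie, the side and distance of each centre from the listed start were examined. Downstream positions were more frequent than upstream ones. Of 213 peaks, 130 (61.0%) were centred downstream of the start and 83 (39.0%, 95% Clopper-Pearson interval 32.4 to 45.9) upstream. Of the downstream peaks, 107 were inside the listed gene (50.2% of the subset, 95% interval 43.3 to 57.1) and 23 lay past its end. The sides were nearly even for the 115 peaks with no other annotated transcript start within 1000 bases, with 55 upstream (47.8%) and 60 downstream (52.2%), whereas 70 of the 98 peaks with another start (71.4%) were downstream. In contrast, 581 of 796 peaks near a start (73.0%) were centred on the upstream side. Most peaks past the gene's end belonged to genes that do not code for protein: 15 of 47 peaks listed for such genes (31.9%) lay past the end, as against 8 of 166 listed for protein-coding genes (4.82%). These 47 peaks were listed mainly for lincRNA (18 peaks), processed pseudogene (7), TEC, that is genes annotated as still to be tested experimentally (6), antisense (5) and miRNA genes (4). Near starts, 96.0% of peaks were listed for protein-coding genes, compared to 77.9% here.

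The number of peaks fell off with distance. The median distance was 3109 bases (quartiles 1631 and 5907). There were 68 peaks (31.9%) from 1000 to 2000 bases, 36 from 2000 to 3000, 26 from 3000 to 4000 and 16 from 4000 to 5000 bases. Bins of 1000 bases from 5000 to 10000 then held 15, 13, 12, 16 and 10 peaks, a range that the bin from 4000 bases already shared. The side changed along with the distance. Between 1000 and 2000 bases, 20 of 68 peaks (29.4%) were upstream and 46 (67.6%) inside the gene, whereas beyond 5000 bases 32 of 67 (47.8%) were upstream and 19 (28.4%) inside. A single peak exceeded 10000 bases, at 10062 bases from the listed microRNA gene Gm25707. Its centre was 36 bases from a start of Phactr4, and it had 27, 37 and 39 counts.

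**Figure D1:**
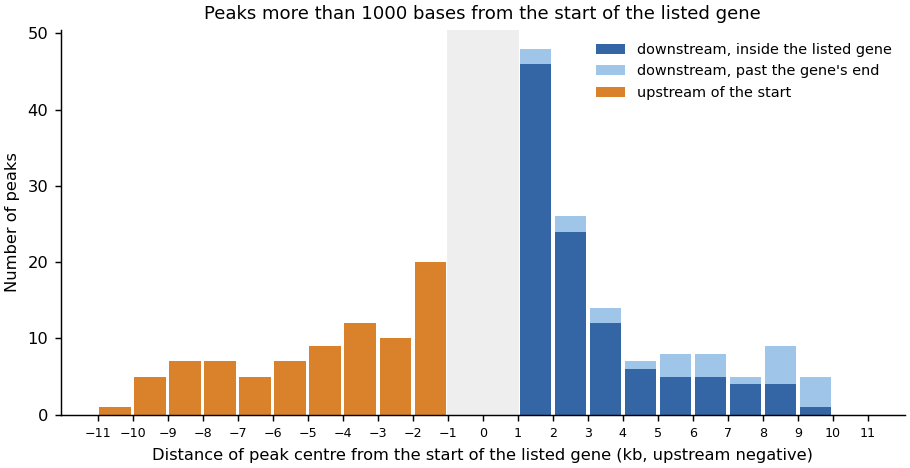
Number of peaks (y axis) in bins of 1000 bases by distance of the peak centre from the start of the listed gene (x axis, kb, upstream negative) for the 213 peaks with a listed gene. Orange bars are upstream peaks, dark blue bars peaks inside the gene and light blue bars peaks past its end; the grey band marks the 1000 bases left out by the rule. The bin just downstream of the start is the tallest, with 48 peaks.

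The limit of 1000 bases does not mark a gap in the data. Just inside the rule were peaks listed for Orai2 at 1013 bases (53, 19 and 11 counts), Ubb at 1023 bases (10, 8 and 4 counts), Amotl2 at 1041 bases (63, 57 and 79 counts), Ddx39b at 1057 bases (34, 28 and 37 counts) and, under the symbol H4c1, the gene that M21 names Hist1h4k at 1075 bases (30, 10 and 7 counts). Just outside it were peaks listed for Tuba1b at 989 bases (129, 69 and 81 counts), Atxn2l at 954 bases (5, 5 and 15 counts), Rdm1 at 952 bases (24, 11 and 20 counts), Rbm25 at 946 bases (20, 24 and 20 counts) and Id2 at 937 bases (195, 92 and 99 counts). Both sides of the limit held peaks with few and with many counts.

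Next, the centres were compared with every transcript start annotated in GENCODE M21. Many of the peaks lay away from the listed start but next to another start. Of the 213 peaks with a listed gene, 98 (46.0%) were within 1000 bases of an annotated transcript start, 48 of them within 100 bases, and for 54 of the 98 this start belonged to the listed gene itself. Of the 122 peaks with no listed gene, 34 (27.9%) were within 1000 bases of a transcript start and 15 of these within 100 bases. For these 34, no gene with a start within 10000 bases had been listed although a transcript started there. Over both subsets, 39.4% of the peaks (95% interval 34.1 to 44.9) were within 1000 bases of a transcript start. When the limit was set at 500 bases the share was 30.4%, at 2000 bases 54.03%, and with starts of protein-coding genes only 32.2%.

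The remaining peaks with a listed gene were centred in intergenic sequence (61), introns (45), other exons (6), 5′ UTRs (2) and a 3′ UTR (1). For the peaks with no listed gene, introns came first with 47 peaks, followed by intergenic sequence (36), 3′ UTRs (3) and other exons (2). Of the latter subset, 68 peaks were more than 10000 bases from any transcript start and 12 were more than 50000 bases away.

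**Figure D2:**
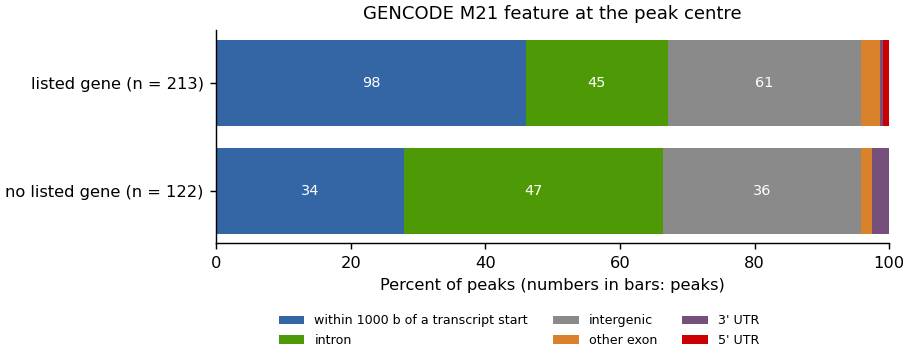
Share of peaks (x axis, percent) by the GENCODE M21 feature at the peak centre, with 1 bar for the 213 peaks with a listed gene and 1 for the 122 with no listed gene. Blue segments are peaks within 1000 bases of any transcript start (98 and 34 peaks), green segments introns (45 and 47) and grey segments intergenic sequence (61 and 36).

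Peaks at other starts included several of the highest. H3-3a is the symbol listed for a peak whose gene M21 names H3f3b, which encodes the replacement histone H3.3. This peak had 227, 89 and 119 counts in replicates 1, 2 and 3 (normalised count 139.8 ± 28.0, SD, n = 3) and was centred 73 bases from a further start of the gene. Ing1, which encodes a reader of histone methylation, had a peak of 130, 79 and 154 counts only 2 bases from an alternative start (123 ± 33.4). Both peaks were within the top 3% of all peaks, and their libraries differed by more than counting noise by the exact multinomial test (adjusted p = 0.021 and 0.0020).

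Further genes with a peak at a start of their own, away from the listed one, included Cirbp, Hsp90aa1 and Eef1a1. Cirbp, encoding a cold-inducible RNA-binding protein, had 273, 113 and 126 counts (165 ± 38.4), 122 bases from a start within the gene. Hsp90aa1, encoding a cytosolic chaperone, had 144, 47 and 75 counts, 71 bases from a start. The translation elongation factor gene Eef1a1 had 82, 18 and 51 counts at 144 bases from a start. In each of these, replicate 1 had the most counts, as it did in the totals, and the 3 libraries still differed after scaling (adjusted p = 0.0012, 0.020 and 0.0070).

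For other peaks the start belonged to a gene other than the one listed. The peak listed for the microRNA gene Mir21a lay 2.5 bases from a start of Vmp1, which encodes an autophagy protein of the endoplasmic reticulum. It was 581 bases wide and had 240, 67 and 168 counts (150.0 ± 49.9), with a difference between libraries (adjusted p = 2.15e-05). A peak listed for the ribosomal protein gene Rps2, with 156, 64 and 116 counts (109 ± 18.2), was 36.5 bases from a start of the small RNA host gene Snhg9. The peak listed for Syngr1 was 40 bases from a start of Rpl3 and had 103, 44 and 52 counts.

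In the subset with no listed gene, the highest peak was also at a start. It was centred 62 bases from a start of Asb5, which encodes an ankyrin repeat and SOCS box protein, and had 144, 59 and 64 counts (85.8 ± 21.5). A further peak inside Asb5, 1844.5 bases from any start, had 126, 46 and 49 counts (70.1 ± 22.9). Both Asb5 peaks hold an E-box, and that in the intron also an AP-1 motif. Replicate 1 was the highest in both, and the libraries differed (adjusted p = 0.021 and 0.0045). Starts of Tsc22d1 (44, 45 and 62 counts), of Hmgb1 (66, 25 and 62 counts), which encodes an abundant chromatin protein, and of the stress-induced factor gene Atf3 (83, 24 and 36 counts) followed at distances of 57 to 84.5 bases. The libraries differed at Tsc22d1 and Atf3 (adjusted p = 0.0085 and 0.025). A peak 66 bases from a start of Runx1, encoding a DNA-binding factor active in proliferating myoblasts, had 34, 24 and 40 counts (33.6 ± 8.02).

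Away from any annotated start, a high peak with a listed gene was found upstream of Tnrc18. The Tnrc18 peak lay 4067 bases upstream of the start and had 242, 119 and 132 counts (162 ± 22.9), more than the peak at the Tnrc18 start itself, which had 54, 17 and 39 counts (35.1 ± 10.0). In all, 42 of the 188 genes were also listed for a peak near the start. For each of these genes the highest distant peak was compared with the highest near one, including distant peaks at other starts, as in Cirbp and Ing1. The distant peak was higher in 3 of 3 libraries for 9 of these genes and lower in 3 of 3 for 22.

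The remaining high peaks with no listed gene were in introns, a 3′ UTR or intergenic sequence. An intron of Zfp568, encoding a zinc-finger protein, held a peak of 105, 74 and 53 counts (79.1 ± 23.4, adjusted p = 0.019). A 3′ UTR of H13, encoding signal peptide peptidase, held 101, 25 and 28 counts (46.8 ± 25.9, adjusted p = 2.16e-05), with replicate 1 the highest. Introns of Map3k14 (78, 25 and 35 counts) and Iqck (43, 41 and 39 counts) completed the highest 10, with an intergenic peak 16579.5 bases from the nearest start, of Ripor2 (58, 31 and 61 counts).

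**Figure D3:**
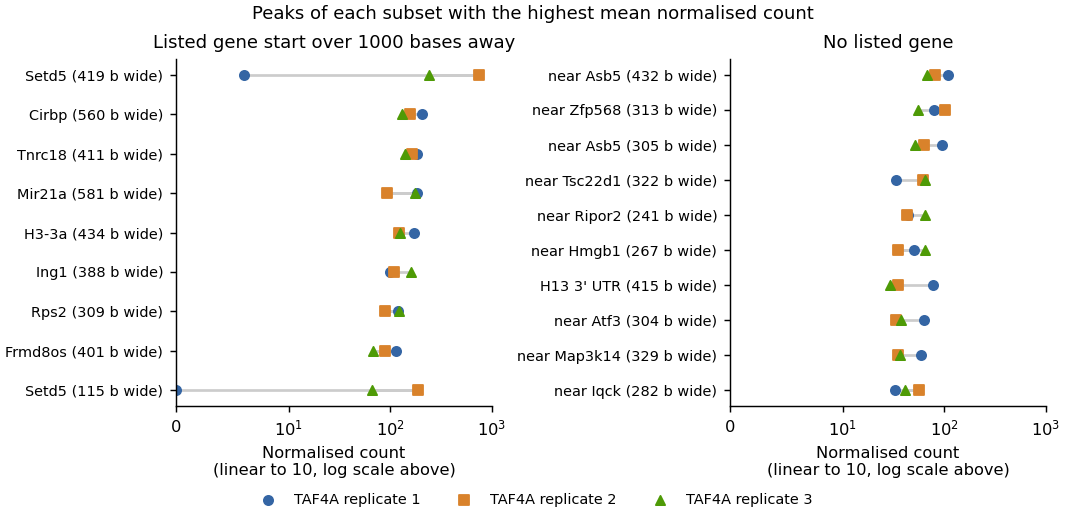
Normalised counts (x axis, linear to 10 and logarithmic above) of 9 of the 10 peaks with the highest mean among those with a listed gene and of the highest 10 among those with none (y axis, named by the listed gene on the left and by the gene of the nearest transcript start, or the gene held, on the right, with the peak width). Circles, squares and triangles are TAF4A replicates 1, 2 and 3. The widest spread is that of the peaks listed for Setd5, which are in Gt(ROSA)26Sor and are at 6.07 and 0 in replicate 1 and at 746 and 188 in replicate 2.

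Genes of lists relevant to MuSCs and to TFIID were then looked up by the listed gene, so peaks with no listed gene were not counted. For reference, 188 of 55413 genes in M21 were listed for a distant peak and 900 for any peak. A member of the TFIID list with a distant peak was Taf4, the gene of TAF4A. This peak, printed above, lay 3331 bases upstream of the start and had 68, 29 and 45 counts (46.2 ± 5.79), with no difference between libraries beyond counting noise (adjusted p = 0.68). Taf4 was 1 of 15 TFIID genes; Taf4 and Taf13 also had peaks near the start. Of 7 genes of NF-Y and SP factors and 9 of the NSL complex, none was listed for a distant peak, and 2 of each list had a peak near the start.

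Of 35 myogenic genes, 2 were listed for a distant peak and 3 for a peak near the start. Itga7, encoding the integrin chain used to sort MuSCs, had a peak 2261 bases upstream with 43, 8 and 12 counts (18.7 ± 12.0, adjusted p = 0.0074). Replicate 1 was the highest by far. A peak in an exon of the troponin gene Tnnt2 had only 11, 4 and 2 counts. Not on the list, but chosen after their values were seen, were 2 peaks in Cdon, encoding a cell surface receptor that promotes myogenic differentiation, with 34, 22 and 26 counts at an alternative start and 38, 30 and 33 counts in an intron. Likewise chosen was a peak 1348 bases upstream of Sync, the gene of the intermediate filament protein syncoilin, with 30, 19 and 20 counts.

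Of 19 immediate early genes, 3 were listed for a distant peak and 8 for a peak near the start. Atf3, also on this list, is not among them, since its peak described above (83, 24 and 36 counts) had no listed gene. Junb, encoding an AP-1 subunit, had 2 such peaks, 1340 bases upstream of its start with 56, 28 and 39 counts (40.6 ± 1.89) and 2499 bases upstream with 39, 21 and 10 counts (23.0 ± 10.9). Ier5 had a peak 5923 bases from its start with 24, 13 and 17 counts and another 8958 bases away with 24, 11 and 9 counts. Ier2 had a peak of 49, 11 and 32 counts at 1228 bases. The libraries differed only at the second Junb peak among these 5 (adjusted p = 0.025), and Ier5 and Junb were also listed for a higher peak at the start, with 123, 76 and 84 counts and 107, 51 and 75 counts.

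Of 22 actin and matrix genes, 4 were listed for a distant peak and 6 for a peak near the start. Actg1, encoding cytoplasmic gamma-actin, had 32, 13 and 18 counts 1797 bases upstream. Ccn1, encoding a matricellular protein, had 24, 18 and 14 counts 1948 bases from its start, at a centre 165.5 bases from a start of Gm17501. The matrix protein gene Sparc had 6, 10 and 15 counts 39 bases from an alternative start. In Flna, encoding the actin cross-linker filamin A, 2 peaks had 14, 10 and 18 counts and 11, 11 and 13 counts. The latter was 4 bases from another Flna start. The libraries did not differ by more than counting noise at any of these 5 peaks, the smallest adjusted p being 0.070 for Sparc.

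Peaks away from the listed start were narrower than those near it and had fewer counts per base. The median width was 145 bases with a listed gene (quartiles 111 and 208) and 131 bases with no listed gene (108.5 and 179.5), compared to 173 bases near starts (122 and 243.25). Widths over 300 bases were found in 20 (9.39%), 7 (5.74%) and 109 (13.7%) peaks of these groups. Across both subsets the median was 35 bases below that near starts, but only 11 bases below when both groups were restricted to peaks of 10 or more counts per library. Low counts and narrow widths went together, with r from 0.716 to 0.780 between log2 width and log2 normalised count in the 3 libraries over the 213 peaks and from 0.628 to 0.725 over the 122.

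In each library, the median level per base was lower in both subsets than near starts. On the log2 scale (normalised count plus 1, divided by width), the median of peaks with a listed gene was below that near starts by 0.19 in replicate 1, 0.20 in replicate 2 and 0.18 in replicate 3, a mean difference of -0.19 ± 0.0075 (SD, n = 3 libraries) or 0.877-fold. For peaks with no listed gene the differences were -0.25, -0.34 and -0.28, with a mean of -0.29 ± 0.046 or 0.818-fold. Every library was lower in both subsets, and both differences exceeded the spread between libraries. The exact two-sided permutation test by sign flips gave p = 0.25 for each, the smallest p that 3 libraries allow. The size of the differences depended on the scale. With a pseudocount of 10 they were -0.087 with a listed gene and -0.13 with none, and per peak instead of per base -0.43 and -0.66. Among peaks with at least 10 counts in each library they were -0.14 and -0.16.

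The difference remained without the peaks next to other starts. Peaks with a listed gene that had no other start within 1000 bases (115) were lower by -0.25 ± 0.047 and those with another start (98) by -0.11 ± 0.023. For peaks with no listed gene the values were -0.31 ± 0.059 without (88) and -0.32 ± 0.19 with a start (34). In all, peaks with a listed gene took 15.9%, 17.9% and 16.4% of the counts over peaks in replicates 1, 2 and 3 (95% Clopper-Pearson intervals 15.6 to 16.2, 17.5 to 18.4 and 16.0 to 16.8, for counting error only), although they were 18.8% of the peaks. Peaks with no listed gene took 6.67%, 6.61% and 7.25% (6.45 to 6.90, 6.30 to 6.92 and 6.96 to 7.53) and were 10.8% of the peaks.

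The base composition differed as well. The median GC content was 57% with a listed gene, 52.9% with none and 61.0% near starts. The ratio of observed to expected CpG, which is high at CpG islands, had a median of 0.351 with a listed gene, 0.292 with none and 0.781 near starts. Peaks next to other starts were intermediate, at 0.518 with a listed gene and 0.620 with none, and those away from any start had medians of 0.293 and 0.249.

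The motifs differed between the peak groups in opposite directions. AP-1 and E-box motifs were more frequent in the described peaks, and NF-Y and SP1 motifs near starts. The AP-1 motif TGANTCA was found in 32 of 122 peaks with no listed gene (26.2%, 95% Wilson interval 19.2 to 34.7) and in 31 of 213 with a listed gene (14.6%, 10.4 to 19.9), but in 38 of 796 near starts (4.77%, 3.50 to 6.48). Flanking windows as wide as the peak, shifted by 3000 bases left and right, held it in 3.28% and 4.92% of cases for peaks with no listed gene and in 4.23% and 4.69% for peaks with a listed gene. The share was highest in the 88 peaks with no listed gene and no start within 1000 bases, with 27 peaks (30.7%). For reference, 7.81% of 32817 RefSeq promoters of GRCm38, from 250 bases before to 50 after the start, held the motif, in windows that are longer than most peaks.

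The E-box CAGCTG was present in 52 of 213 peaks with a listed gene (24.4%, 19.1 to 30.6) and 28 of 122 with none (23.0%, 16.4 to 31.2), against 66 of 796 near starts (8.29%, 6.57 to 10.4). Flanking windows held it in 7.04% and 9.39% of cases for the former and 12.3% and 9.02% for the latter, and RefSeq promoters in 16.3%. Of the 115 peaks with a listed gene and no other start within 1000 bases, 36 (31.3%) held it. Both AP-1 and E-box motifs were found in 11 peaks with a listed gene and 10 with none, including those in Ehbp1l1 (78, 39 and 39 counts), Iqck and upstream of Taf4, and in 4 of 796 peaks near starts. An E-box was also present 6476 bases upstream of Id1 (99, 37 and 56 counts), 2935 bases from Id3 (31, 18 and 16 counts), both encoding inhibitors of bHLH factors, and in an intron of Ip6k3 (54, 25 and 48 counts).

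In contrast, the NF-Y motif CCAATCA was found in 21 of 213 peaks with a listed gene (9.86%, 6.54 to 14.6) and 7 of 122 with none (5.74%, 2.81 to 11.4), compared to 170 of 796 near starts (21.4%, 18.7 to 24.3) and 7.80% of RefSeq promoters. Flanking windows of the described peaks held it in 0% to 1.64% of cases. GGGCGGG, the SP1 motif, occurred in 48 peaks with a listed gene (22.5%, 17.4 to 28.6), 11 with none (9.02%, 5.11 to 15.4) and 347 near starts (43.6%, 40.2 to 47.1), and in 25.6% of RefSeq promoters. Its share depended on other starts. With a listed gene, 34 of 98 peaks at another start (34.7%) held it and 14 of 115 away from one (12.2%), and with no listed gene 8 of 34 (23.5%) and 3 of 88 (3.41%). The intergenic peak on chromosome 6 printed above, 98806.5 bases from the nearest start, holds 3 NF-Y motifs and had 50, 31 and 40 counts (40.8 ± 2.59). A match to these letters does not show that the factor was bound, and 89 of 213 peaks with a listed gene (41.8%) and 60 of 122 with none (49.2%) held none of the 4 motifs.

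**Figure D4:**
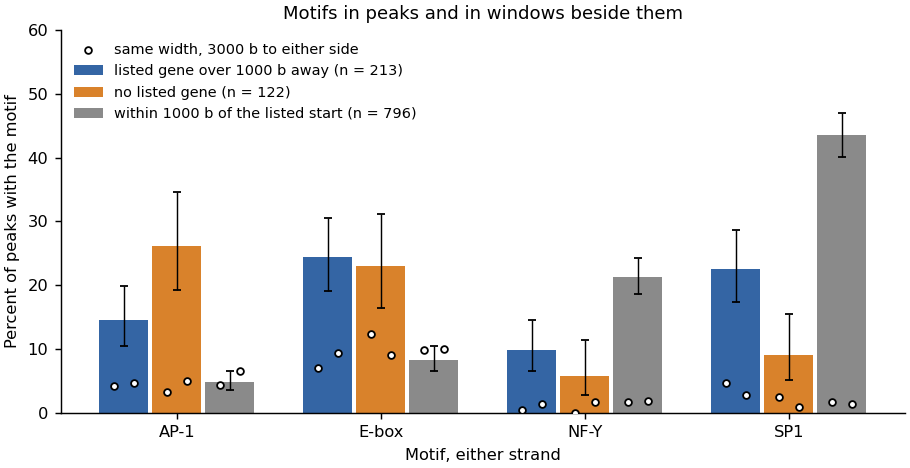
Percent of peaks (y axis) that hold the AP-1, E-box, NF-Y or SP1 motif on either strand (x axis) in peaks with a listed gene over 1000 bases away (blue, n = 213), with no listed gene (orange, n = 122) and within 1000 bases of the listed start (grey, n = 796). Error bars are 95% Wilson intervals and open circles give the share of equally wide windows shifted by 3000 bases left and right. For AP-1 the order is 26.2% with no listed gene, 14.6% with a listed gene and 4.77% near starts, and for SP1 it is reversed.

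Along the chromosomes, most of the peaks stood alone. Of the 335, 216 had no other peak within 10000 bases, and 79 (23.6%, 95% interval 19.1 to 28.5) had another of the 335 within this distance, in 51 cases with a listed gene and 28 with none. Each chromosome held between 5 and 32 of the peaks. Chromosome 6 had the highest share, with 23 of its 54 peaks, and chromosome 18 the lowest, with 5 of 27. Peaks that stood together were often close, since 32 of the 335 had another within 1000 bases.

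In 11 places, 3 or more peaks followed each other, at least 2 of them away from the listed start. Around Id1, 5 peaks spanned 12080 bases, 2 of them within 1000 bases of the start. A peak 6476 bases upstream with 99, 37 and 56 counts (61.6 ± 12.3) and smaller peaks 9011 bases upstream (18, 0 and 10 counts) and 2946 bases downstream (22, 7 and 18 counts) accompanied the peak at the start, which had 213, 95 and 117 counts. Upstream of Tnrc18, 3 peaks followed each other at 4067, 4784 and 6047 bases, and the outer ones had 38, 14 and 30 counts and 38, 21 and 27 counts.

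Noncoding RNA genes accounted for a group of neighbouring runs on chromosome 19. Upstream of Malat1, an abundant nuclear RNA, peaks at 8028 bases (66, 27 and 41 counts) and 7613 bases (16, 9 and 20 counts) accompanied peaks near the start with 88, 52 and 55 and with 69, 31 and 39 counts. In Frmd8os, peaks in an intron (149, 64 and 65 counts, 89.8 ± 22.6) and at an alternative start (144, 48 and 49 counts, 75.6 ± 30.1) lay next to the peak at the listed start (322, 69 and 132 counts). Replicate 1 was high in all 3 of these, and the libraries differed at each (adjusted p = 0.016, 0.00011 and 7.44e-14).

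The other runs comprised peaks at Ier5, Cirbp, Junb, Tlcd2 with the microRNA host gene Mir22hg, the histone genes listed as H2ac4 and H2bc4 (Hist1h2ac and Hist1h2bc in M21), Plec and Hspa1b. In Plec, encoding the cytoskeletal linker plectin, 2 peaks were listed for Gm25720 and had 22, 10 and 15 and 18, 11 and 14 counts, and another peak of the run with no listed gene had 23, 5 and 3 counts. At Hspa1b, encoding an inducible Hsp70 chaperone, 2 peaks in the gene body were highest in replicate 3, with 11, 5 and 25 counts and with 2, 3 and 18 counts (adjusted p = 0.0074 and 0.00034). A peak 6634 bases from the Hspa1b start, but 133 bases from a start of 1110038B12Rik, had 44, 16 and 14 counts. Hspa1b has a near-identical copy, Hspa1a, and its values are uncertain since reads with multiple mappings were removed.

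To test how well the libraries agreed, the 3 counts of each peak were compared with the scaled library sizes by an exact multinomial test, adjusted by Benjamini-Hochberg over all peaks. A peak entered the set through a call in any single library, so differences between libraries are in part built into the set. Over all 1131 peaks, 18.1% differed by more than counting noise (adjusted p under 0.05). Of the peaks with a listed gene, 41 of 213 (19.2%) did so, and of those with none 24 of 122 (19.7%), shares near that of all peaks. Replicate 1 was the highest library in 24 and 10 of these peaks, compared to 9.81% of all peaks. Replicate 2 was the highest in 10 and 6 (4.07% of all peaks) and replicate 3 in 7 and 8 (4.24% of all peaks). The numbers of peaks at which the libraries differed depended on single libraries. Without replicate 1 the counts were 7 with a listed gene (3.29%) and 7 with none (5.74%), against 2.48% of all peaks. Without replicate 2 they were 29 (13.6%) and 19 (15.6%), against 15.2% of all peaks. Without replicate 3 they were 17 (7.98%) and 5 (4.1%), against 7.78% of all peaks.

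The largest difference between libraries was found in Gt(ROSA)26Sor, a broadly transcribed noncoding gene known as a site for targeted transgenes. A pair of peaks in its intron, listed for the neighbouring gene Setd5, had 8, 540 and 229 counts at chr6:113072741-113073160 and 0, 136 and 63 counts at chr6:113073674-113073789 (adjusted p = 5.19e-225 and 5.89e-59). The first was the highest of all 1131 peaks in mean normalised count (330.4 ± 378), and its 78.9 normalised counts per 100 bases were the most of any peak. This rested on replicates 2 and 3, since replicate 1 was almost without counts there. The labels give the same genotype for all libraries, and the cause of the difference was not tested.

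Among peaks with no listed gene, the largest differences were found in repeats. Only 6 of all 1131 peaks lay wholly in sequence that the reference masks as repeat, and all 6 had no listed gene. The copy on chromosome 7 had 1, 2 and 114 counts (adjusted p = 1.27e-49), that on chromosome 5, in an intron of Kcnip4, had 1, 1 and 42, and that on chromosome 2 had 0, 2 and 34. The copy on chromosome 15 had 1, 0 and 22 counts and that on chromosome 6 had 1, 0 and 17, and a further copy on chromosome 18 had 0, 1 and 20. Thus, each had at most 2 counts in replicates 1 and 2, and replicate 3 was the highest in 6 of 6. Since peaks were called per library and then joined, such regions could hardly enter the set except through replicate 3. The order of the libraries and the p-value therefore follow in part from this selection. In pairwise local alignments the 6 copies were 90.1% to 98.2% identical, 3 on either strand, and the 25-base block shared by the printed copies occurs 29862 times on the GRCm38 chromosomes. The authors removed reads with multiple mappings, and whether these counts stem from the listed positions was not tested. Replicate 3 also had longer reads than replicates 1 and 2, and a part of read length in this difference was not tested.

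A further peak with few counts in 1 library was in an exon of Zfp36, which encodes an mRNA decay factor induced by stimulation. It had 0, 11 and 40 counts (adjusted p = 2.42e-13), 2409 bases from the listed start.

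The agreement between libraries over all peaks of a subset was influenced by these few peaks. Pearson's r of log2 normalised counts over the 213 peaks with a listed gene was 0.592 between replicates 1 and 2, 0.595 between 1 and 3 and 0.731 between 2 and 3 (mean 0.639 ± 0.079). Without the pair in Gt(ROSA)26Sor the mean was 0.710. Over the 122 peaks with no listed gene, r was 0.768, 0.279 and 0.425 (mean 0.491 ± 0.25), and the mean was 0.644 without the 6 repeat peaks. Near starts the mean was 0.799. The points share the width of the peak, and per base the mean r fell to 0.257 with a listed gene and 0.142 with none.

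The biological coefficient of variation, the spread between libraries beyond counting noise as estimated by edgeR, followed the same pattern. It was 0.360 over peaks with a listed gene and 0.277 without the pair in Gt(ROSA)26Sor. Over peaks with no listed gene it was 0.453, but 0.275 without the 6 repeat peaks and 0.246 without replicate 3. Near starts it was 0.249, and 0.242 without replicate 3. Among peaks with at least 10 counts in each library it was 0.206 with a listed gene, 0.230 with none and 0.222 near starts, with the value for a listed gene then the lowest of the 3.

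**Figure D5:**
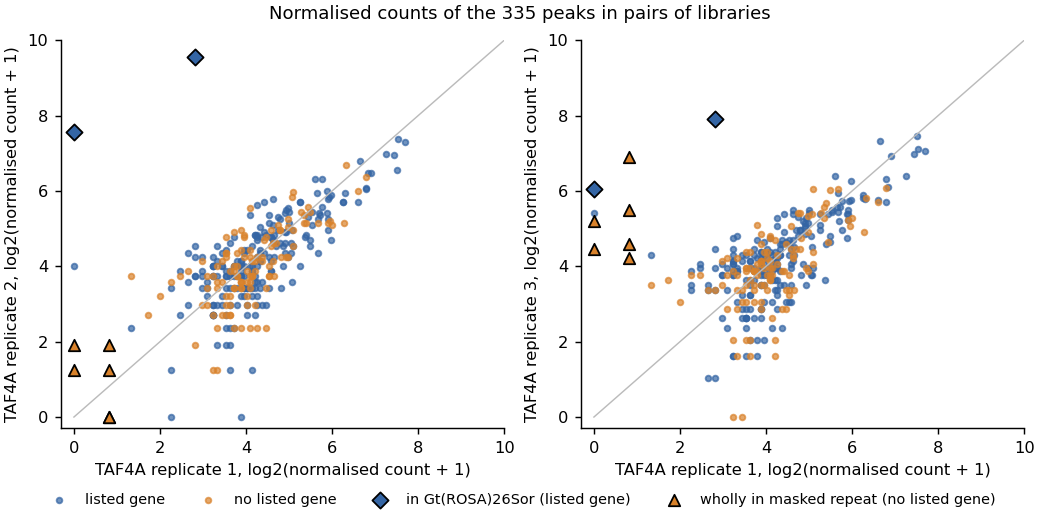
Normalised counts, as log2 of the count plus 1, of the 335 peaks in replicate 1 (x axes) against replicate 2 (left, y axis) and replicate 3 (right, y axis), with the line of equality in grey. Blue points have a listed gene and orange points none; diamonds mark the pair in Gt(ROSA)26Sor and triangles the 6 peaks wholly in masked repeat. The diamonds lie above the line in both panels, and the triangles lie above it for replicate 3 and near the origin for replicate 2.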

How the data were processed

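Wild-type C57BL/6 MuSCs were profiled by CUT&RUN in 3 TAF4A and 3 IgG libraries, grouped by their titles. The authors trimmed reads with Trimmomatic 0.39, aligned them to mm10 with STAR 2.7.9a and removed duplicates as well as spliced and multi-mapping reads. Peaks were called per TAF4A library against IgG at a false discovery rate of 0.05 and unified. The deposited table gives featureCounts read counts for each unified peak and lists a gene by the authors' annotation with promoters of 10000 bases on either side of a start. The listed distance reached 10062 bases, and the listed start was often not the closest in GENCODE M21. The methods name DESeq2 for normalisation, but the values are whole numbers and were treated as raw counts. Symbols are those listed, and where none is listed, GENCODE M21 names were used.

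Counts were scaled with TMM in edgeR 4.0.16 (R 4.3.3). To obtain normalised counts, each library was brought to the average of the 3 scaled library sizes. The exact multinomial test was adjusted by Benjamini-Hochberg over all 1131 peaks and was tested on simulated data. Log2 values used a pseudocount of 1. Alternatives included DESeq2 1.42.0 size factors. Peaks were annotated with GENCODE M21, whose gene IDs matched all 1009 peaks with a gene. Deposited starts were read as counted from 0 for sequences. Other steps used Python with scipy. At most 47723 counts were available per library, and intervals cover counting error only.

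Named peaks were, per subset, the 10 highest, the 5 with the smallest adjusted p, the 3 widest, those in runs of 3 or more peaks with at least 2 members, the 5 on either side of the 1000-base limit, and those listed for genes of the lists; 1 of these peaks is not reported here. Further peaks were named for their motifs or neighbouring start after their values were seen. The peaks and lists were chosen with earlier results of these data known. The planned comparison with IgG was not run.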

Additional observations from a re-analysis of the deposited data

How the results depend on the processing

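No paired analysis was possible because the counts used here were those of the TAF4A libraries alone. Without scaling, 94 peaks with a listed gene and 50 with none differed between libraries (44.6% of all peaks), and at adjusted p under 0.01 it was 19 and 12 (9.9% of all). Among peaks of 10 or more counts per library, 22 of 118 (18.6%) and 9 of 49 (18.4%) did so, against 19.5% of all such peaks, so the shares stayed near those of the full set. Leaving out each replicate gave 7 to 29 and 5 to 19, against 2.48% to 15.2% of all peaks. The mean r with a listed gene was 0.736 with a pseudocount of 10, 0.257 per base, 0.834 with at least 10 counts and 0.592 to 0.731 with a replicate left out. With no listed gene it was 0.142 per base and 0.279 to 0.768 with a replicate left out. The coefficient of variation with a listed gene was 0.474 without scaling, 0.206 with at least 10 counts and 0.256 to 0.404 with a replicate left out. With no listed gene it was 0.230 with at least 10 counts and 0.246 to 0.536 with a replicate left out. It was 0.275 without the repeat peaks, an alternative chosen after seeing the data.

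Taking 500 or 2000 bases as the limit gave peaks with a listed gene 23.2% or 11.4% of the counts, and with 2000 bases 42.1% were inside the gene. Shares within 500 and 2000 bases of any start were 30.4% and 54.03%, and 32.2% for coding genes. The width difference was -11 bases with at least 10 counts. Another of the peaks lay within 50000 bases for 31.9%. Over both subsets, the NF-Y share (8.36%) was 12.0% with at least 10 counts and 27.8% for CCAAT. The SP1 share (17.6%) was 12.8% in the central 100 bases, 22.8% with at least 10 counts and 8.37% without peaks near other starts. The AP-1 share (18.8%) and the E-box share (23.9%) were 12.2% and 16.4% in the central 100 bases. The cause of these shifts was not tested. The other 64 of 101 recomputed values stayed on the same side, the level per base keeping its direction but not its size (-0.087 to -0.43 with a listed gene and -0.13 to -0.66 with none), and no named peak moved by more than 1 SD with DESeq2 size factors. In replicate 2, 40.3% of the peaks had under 10 counts, which limits what can be told apart.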
